A study of Mus musculus with 8 samples.

Results

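C1galt1c1 knockout (KO) was compared with wild type (WT) in 6694c2 and 6419c5, a pair of clonal mouse pancreatic ductal adenocarcinoma cell lines. These 4 libraries, 1 per line and genotype, were taken from a series of 8, which also holds WT and KO of lines 2838c3 and 6499c4. All cells were grown as unmixed cultures and harvested at like density, and the KO cells carry a disrupted C1galt1c1 and, per the labels, the Tn antigen. How the gene was disrupted, and whether each KO line is 1 clone, is not given in the labels used here. Polyadenylated RNA was sequenced, and the deposited values are TPM, length-scaled shares that add up to 1000000 per library. 6694c2 and 6419c5 are known as lines whose tumours hold few T cells in mice, which is background. No tumour or T cell is part of these data.

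Genes were kept where 2 or more of the 4 libraries reached 1 TPM, which left 13447 of 49315 identifiers, 13104 of them named genes. For each gene the KO minus WT difference in log2(TPM + 1) was taken within each line, and the median over all kept genes was subtracted. These medians were -0.22 in 6694c2 and -0.16 in 6419c5. All differences below are on this relative log2 scale, which understates the fold of genes near 1 TPM. The test was limma, with the line as a block and Benjamini-Hochberg adjustment over all 13447 identifiers. It has 1 residual degree of freedom per gene, so its error is mostly borrowed from other genes. Each line was sequenced once per genotype, so the p-values rest on the spread between the differences of the 2 lines, largely pooled over genes. They measure no spread between repeat cultures of a line.

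C1galt1c1, also called Cosmc, is the chaperone that lets the enzyme C1galt1 fold and extend mucin-type O-glycans beyond the first sugar. Many of the genes described below belong to the integrated stress response. In that response kinases that sense amino acid shortage, unfolded protein in the endoplasmic reticulum (ER), haem lack or double-stranded RNA phosphorylate the initiation factor eIF2, which slows most translation while the transcription factor ATF4 is made. ATF4, with C/EBP partners and DDIT3, switches on genes for amino acid synthesis, amino acid uptake and tRNA charging, and feedback genes such as Trib3. The unfolded protein response is a linked programme in which ATF6 and XBP1 raise ER chaperones.

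The libraries match pancreatic epithelium by their markers. All 10 ductal markers reached 1 TPM in at least 1 of the 4 libraries. Their summed level was 13475 to 20210 TPM, most of it the keratins Krt8, Krt18 and Krt19. In WT and KO of 6694c2 Cldn4 was at only 0.167 and 0.146 TPM and Epcam at 3.12 and 1.21 TPM. Summed fibroblast markers lay between 7.23 and 11.9 TPM, immune markers between 5.89 and 14.4 TPM, almost all of it Cd68, and endothelial markers between 0.25 and 1.16 TPM. Acinar markers summed to 6.33 to 44.8 TPM and islet markers to 5.18 to 8.09 TPM. C1galt1c1 was at 37.0 TPM in WT and 10.9 TPM in KO of 6694c2, and at 37.9 and 16.1 TPM in 6419c5. Both KO libraries lay under both WT libraries, with a relative difference of -1.24 (SE 0.19, limma adjusted p = 0.157). C1galt1 itself stood at -0.30 in 6694c2 and 0.14 in 6419c5.

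Both KO libraries also stood apart in their RNA make-up. Identifiers without a name in the annotation together with small structural RNA classes held 1.38% of the TPM of the 6694c2 WT library and 13.6% of its KO library, and 1.25% and 10.6% in 6419c5. The shares were 0.872% and 1.41% in 2838c3 and 1.32% and 1.58% in 6499c4. Such RNA was high in the same 2 KO libraries on which every result below rests. With this RNA removed and TPM rescaled, Trib3 differed by 2.89 in place of 2.87 and Asns by 1.93 in place of 1.91. Of the named genes called below, only Lars2 and Gm15564 stayed called in that setting. Whether the rise of this RNA and the changes below have a common cause was not tested.

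**Figure D1:**
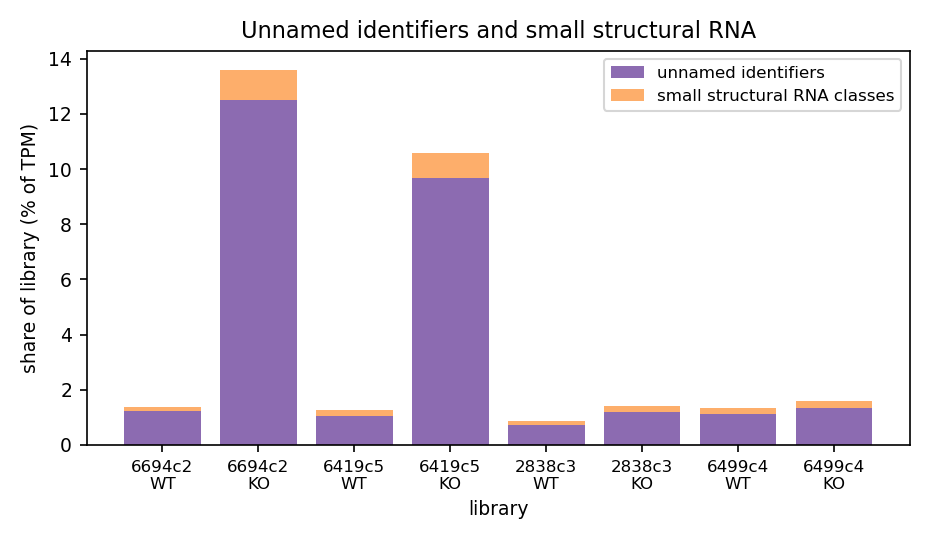
Share of each library's TPM held by unnamed identifiers and by small structural RNA classes, one stacked bar per library. The KO libraries of 6694c2 and 6419c5 reach 13.6% and 10.6%, and the other 6 libraries stay between 0.872% and 1.58%.

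The sequences below show the promoter element through which ATF4 with a C/EBP partner binds its targets. Its core was searched as TGATGNAA on both strands in RefSeq promoter windows of the GRCm38.p6 build, 250 bases before to 50 bases after each start site. Of all 32851 windows 3.97% held it, or 4.51% of the 27025 genes with a window. Each stretch is written 5′ to 3′ along the gene, with the match in capitals. All 7 genes shown are ones whose values are given below, and all 7 were higher in KO of both lines.

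Trib3: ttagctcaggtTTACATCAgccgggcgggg

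Chac1: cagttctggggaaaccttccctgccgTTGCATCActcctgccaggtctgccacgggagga

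Atf3: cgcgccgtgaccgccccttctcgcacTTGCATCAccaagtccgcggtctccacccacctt

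Fgf21: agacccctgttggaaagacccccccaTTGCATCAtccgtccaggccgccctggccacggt

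Asns: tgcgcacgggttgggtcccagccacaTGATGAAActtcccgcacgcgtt

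Slc7a11: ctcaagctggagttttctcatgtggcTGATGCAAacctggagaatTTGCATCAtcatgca

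Slc1a4: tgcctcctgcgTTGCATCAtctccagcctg

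In GRCm38.p6 these stretches lie at chr2:152344028-152344057 on the minus strand for Trib3, chr2:119351023-119351082 on the plus strand for Chac1 and chr1:191183410-191183469 on the minus strand for Atf3. The Fgf21, Asns, Slc7a11 and Slc1a4 stretches lie at chr7:45615596-45615655, chr6:7693210-7693258, chr3:50443646-50443705 and chr11:20332699-20332728, all on the minus strand. The Slc7a11 stretch holds 2 matches in opposite orientation. The Trib3 match begins 15 bases into the transcript, the Asns match 23 bases before the start site and the Chac1 match 193 bases before it. Of the lists described below, 6 of 18 integrated stress response factors with a window held the core, and 4 of 18 amino acid synthesis genes. So did 3 of 12 amino acid transporters and 0 of 3 tRNA synthetases. The matching genes include Vldlr and Slc7a7, which were lower in both lines, at -0.52 and -0.70, and at -0.73 and -0.30. Among the named genes at least 2-fold higher in both lines, 14 of the 57 with a window held it (24.6%). Among those at least 2-fold lower 0 of 16 did. With 4.51% of all genes holding the core, sets of 16 or 3 genes are too small for a count of 0 to be a contrast. Both 2-fold sets were picked by these same values. A match is a string of letters in a window, and binding was not measured.

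limma called 26 of 13447 identifiers at an adjusted p under 0.05, a share of 0.193%. Of these 25 rose (0.186%) and 1 fell (0.00744%), the small RNA Mir7662. They comprised 10 unnamed identifiers, 7 small structural RNA and 9 named genes, all of which rose: Trib3, Ddit3, Asns, Psph, Aldh1l2, Bcat1, the histone gene H4c4, Lars2 and the predicted gene Gm15564. The first 6 all belong to lists of the integrated stress response and amino acid synthesis. At an unadjusted p under 0.05 there were 780 identifiers higher and 801 lower, or 356 higher and 1880 lower where the median was not taken off. The 6 stress and amino acid calls sit close to the threshold, with adjusted limma p between 0.0325 and 0.0468. They were lost without the median shift, without a variance trend, without a filter, without the line block, and after removal of structural RNA, where their adjusted p ranged from 0.0895 to 0.0993. With a TPM minimum of 5 all 9 named genes were among 33 called.

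By size alone, 73 named genes were at least 2-fold higher in KO of both lines (0.557% of 13104) and 27 at least 2-fold lower (0.206%). Some of the 73, such as Nnmt and H2ac15, were under 1 TPM in both WT libraries and passed the filter only through the KO libraries. Some of the 27, such as Actc1 and Gm9157, passed it only through the WT libraries. Such genes could pass the 2-fold bound in that direction only. Which direction held more genes turned with the scaling, since without the median shift 45 were higher and 79 lower. The lower count was 108 with a pseudocount of 0.1 and 53 without a filter. Within single lines 313 and 237 genes were at least 2-fold higher in 6694c2 and 6419c5, and 391 and 149 at least 2-fold lower. In opposite directions, 5 genes were 2-fold higher in one line and lower in the other, and 9 the reverse. Of the 73 higher genes, 27 belong to the 4 lists of stress response factors, amino acid synthesis, amino acid transport and tRNA charging, which hold 77 tested genes. Thus 35.1% of those 77 genes passed the 2-fold bound, and 79.2% were higher in both lines, against 29.9% of all named genes. The lists were chosen with earlier results of these data known, so these shares describe the lists and are no independent support. By the smaller of the 2 lines' differences, the genes nearest the higher bound were Cd53 at 1.007 on the inside and Hspa5 at 0.999 on the outside, and those nearest the lower bound were Ppp2r2b on the inside and Atp1b1 on the outside. Across all 13104 named genes, which are not independent replicates and come from the same 4 libraries, Pearson's r between the 2 lines was 0.308.

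**Figure D2:**
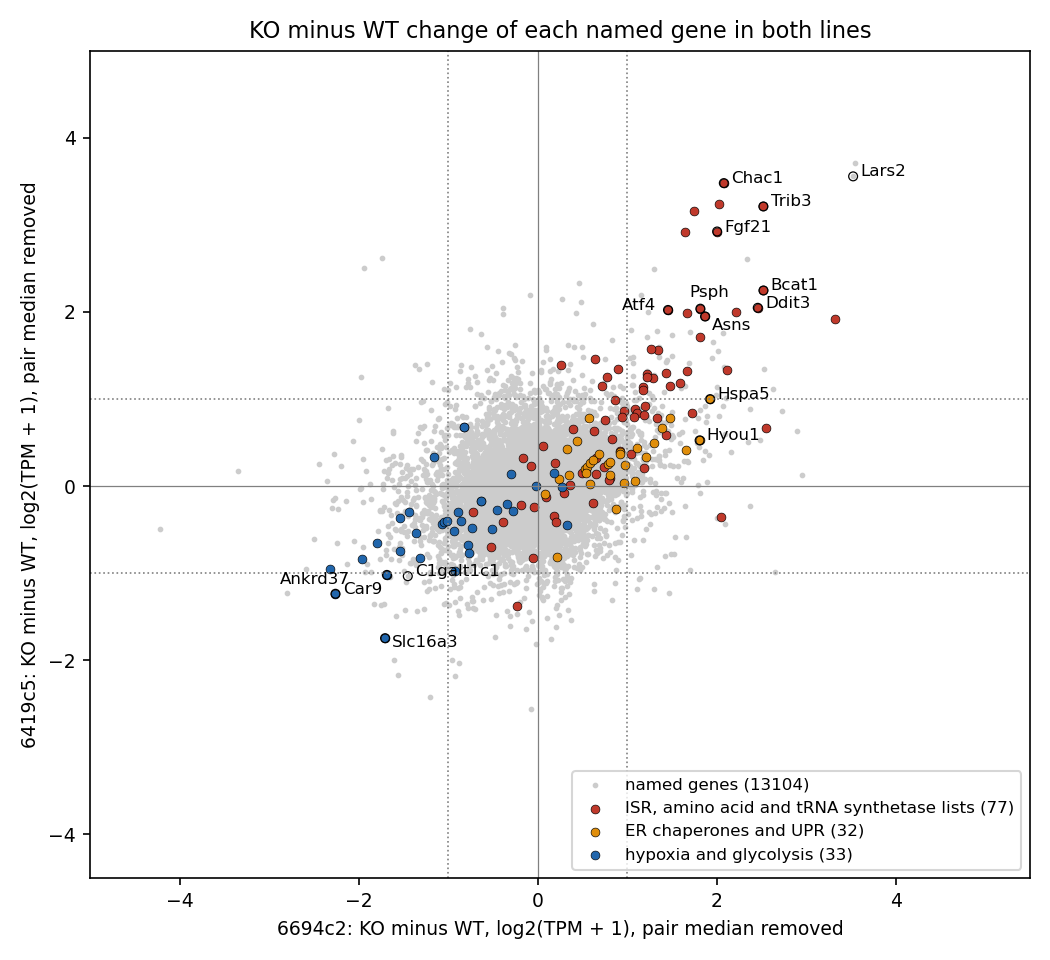
KO minus WT difference of each named gene in 6694c2 (x axis) and 6419c5 (y axis), on the relative log2(TPM + 1) scale. Dotted lines mark a 2-fold difference. Red points, the 77 genes of the stress, amino acid and tRNA synthetase lists, lie mostly in the upper right. Blue points, the 33 hypoxia and glycolysis genes, lie mostly in the lower left. The lists were chosen with earlier results of these data known.

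The transcription factors and feedback genes of the integrated stress response were the list with the largest median, at 1.41 over 20 genes, against -0.01 over all named genes. In 6694c2 the median was 1.45 and in 6419c5 1.29. Of the 20 genes, 16 were higher and 1 lower in both lines, 11 were at least 2-fold higher in both, and 2 were called, Trib3 and Ddit3. Trib3, a pseudokinase that feeds back on ATF4, went from 68.1 to 339.9 TPM in 6694c2 and from 10.96 to 98.5 TPM in 6419c5. Each KO library lay above its own WT library, and the lines differed in where they began. Trib3 rose by 2.87 (SE 0.22, limma adjusted p = 0.0325). In GRCm39 the gene lies on chromosome 2 from 152179337 to 152191958, on the minus strand.

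Ddit3, also called CHOP, is the stress transcription factor tied to cell death. It went from 31.7 to 153.5 TPM in 6694c2 and from 25.8 to 98.5 TPM in 6419c5, so that the groups did not overlap. The rise was 2.25 (SE 0.18, limma adjusted p = 0.0389), and the gene lies on chromosome 10 from 127124268 to 127132163, on the plus strand. Atf4 mRNA itself was at 722 and 1702 TPM in WT and KO of 6694c2 and at 220 and 804 TPM in 6419c5. Its difference of 1.74 (SE 0.21) did not pass, with a limma adjusted p of 0.0965. Atf5, a close relative under the same translational control, was at 207 and 567 TPM and at 79.9 and 288 TPM, with a difference of 1.83 (SE 0.18, limma adjusted p = 0.0511).

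Several target genes had larger differences in 6419c5 than in 6694c2. Chac1, which degrades glutathione, was at 65.3 and 239.6 TPM in 6694c2 and at 7.36 and 82.8 TPM in 6419c5, differences of 2.08 and 3.48. Atf3, a repressor and activator of the same family, was at 15.2 and 55.6 TPM and at 26.4 and 231.8 TPM, differences of 2.02 and 3.24. The secreted factors Gdf15 and Fgf21 stood at 1.75 and 3.16, and at 2.01 and 2.92, respectively. Fgf21 was low, at 0.558 and 4.37 TPM in 6694c2 and 2.82 and 25.0 TPM in 6419c5. For these 4 genes the limma adjusted p lay between 0.0941 and 0.128.

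Other members had smaller or less even differences. Of the 20 genes 3 had opposite signs in the 2 lines, among them Stc2 at 2.05 and -0.35 and Ddit4 at -0.82 and 0.67. These 2 are named apart from the naming rule. Cebpg, a partner of ATF4, stood at 1.34 and 0.78, but Cebpb at 0.81 and 0.10. Vldlr, a lipoprotein receptor, was lower in both lines, at -0.52 and -0.70. Of the eIF2 kinases, Eif2ak3, the ER kinase PERK, stood at 0.24 and 0.08, and Eif2ak4, the amino acid sensor GCN2, at -0.33 and -0.05.

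**Figure D3:**
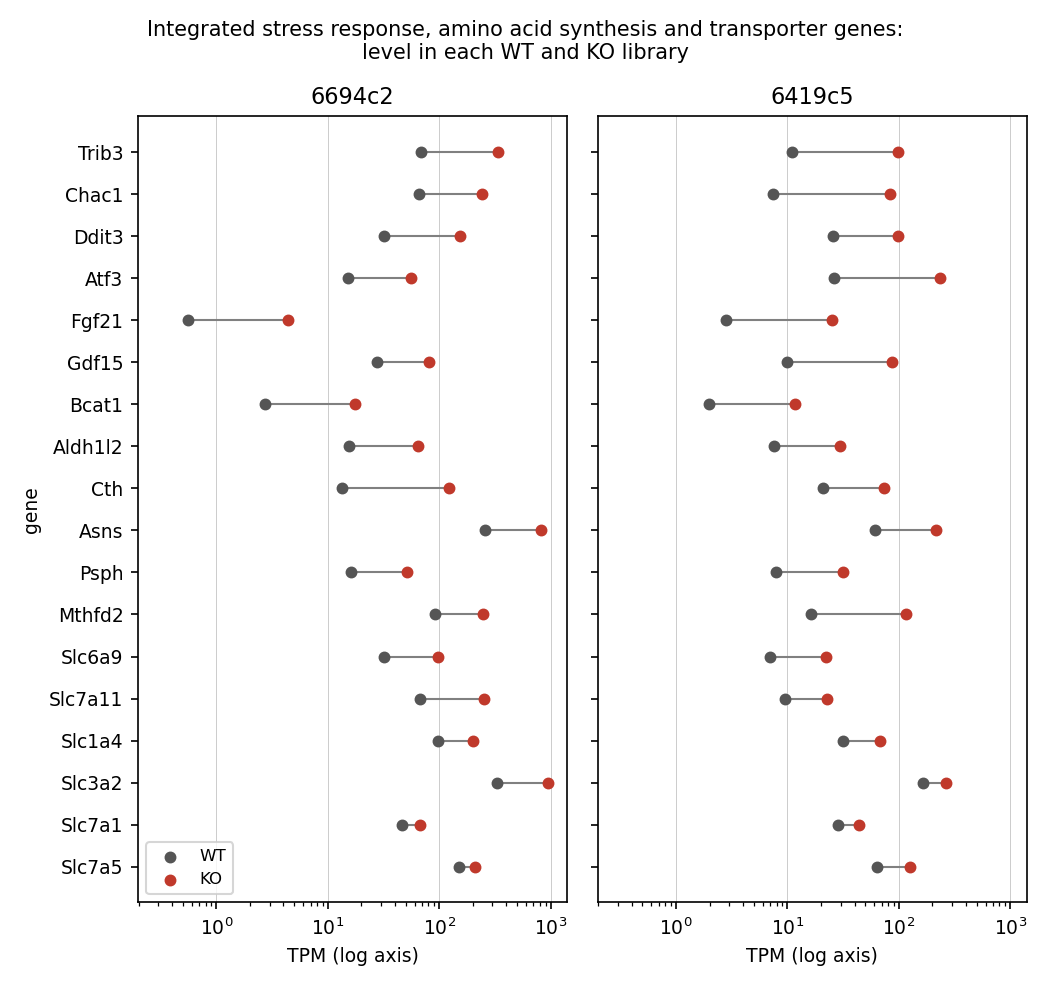
TPM (log axis) of 18 genes in the WT library (grey) and KO library (red) of 6694c2 and 6419c5, up to 6 genes each from the stress factor, amino acid synthesis and transporter lists. For each of the 18 genes the KO point lies to the right of the WT point in both lines, as the choice of genes fixes. The widest distance in 6694c2 is that of Cth, with a KO to WT ratio of 9.19, and in 6419c5 that of Chac1, with a ratio of 11.2.

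Amino acid synthesis genes were higher as a group, with a median of 1.06 over 22 genes (1.15 in 6694c2 and 1.04 in 6419c5). Of the 22, 17 were higher and 3 lower in both lines, 10 were at least 2-fold higher in both, and 4 rose: Asns, Psph, Aldh1l2 and Bcat1. Asns, the asparagine synthetase, was at 260.0 and 818 TPM in WT and KO of 6694c2 and at 61.4 and 215 TPM in 6419c5. It rose by 1.91 (SE 0.16, limma adjusted p = 0.0441) and lies on chromosome 6 from 7671667 to 7728461, on the minus strand. Psph, the last enzyme of serine synthesis, was at 16.2 and 51.0 TPM and at 7.83 and 31.6 TPM, and rose by 1.93 (SE 0.18, limma adjusted p = 0.0468). For both genes the difference within a line was larger than the gap between the lines' own differences.

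Bcat1, the cytosolic transaminase of branched-chain amino acids, was low in WT, at 2.73 TPM in 6694c2 and 1.98 TPM in 6419c5. Its KO levels were 17.4 and 11.7 TPM, a rise of 2.38 (SE 0.21, limma adjusted p = 0.0441). Aldh1l2, a mitochondrial folate enzyme, was at 15.4 and 64.4 TPM and at 7.54 and 29.6 TPM, a rise of 2.11 (SE 0.18, limma adjusted p = 0.0413). Psph lies on chromosome 5 from 129841925 to 129864513, Bcat1 on chromosome 6 from 144939556 to 145022254 and Aldh1l2 on chromosome 10 from 83323314 to 83370005, all on the minus strand.

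Cth, which makes cysteine by transsulfuration, had the largest single difference of the list, from 13.3 to 122 TPM in 6694c2 (3.33), and was at 21.0 and 73.7 TPM in 6419c5 (1.92). Mthfd2, a mitochondrial folate enzyme, leaned the other way, with 1.64 in 6694c2 and 2.92 in 6419c5. Neither passed, with limma adjusted p of 0.108 and 0.127. Phgdh and Psat1, the steps of serine synthesis before Psph, were added once their values had been seen, apart from the naming rule. They stood at 1.09 and 0.88, and at 0.64 and 1.46. Glul, the glutamine synthetase, was lower in both lines, from 432 to 316 TPM (-0.23) and from 1358 to 468 TPM (-1.38), as was Shmt1 at -0.39 and -0.42.

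Amino acid transporters had a median of 0.53 over 15 tested genes, or 0.34 without the median shift, with 10 higher and 2 lower in both lines and 3 at least 2-fold higher in both. The glycine transporter Slc6a9 was at 31.6 and 97.2 TPM in 6694c2 and at 6.93 and 22.3 TPM in 6419c5, with a difference of 1.76 (SE 0.17, limma adjusted p = 0.0511). Slc7a11, the cystine carrier, was at 66.8 and 252 TPM and at 9.51 and 22.7 TPM, differences of 2.12 and 1.33. Slc1a4, a carrier of alanine, serine and cysteine, was at 96.5 and 203 TPM and at 31.3 and 67.4 TPM, differences of 1.28 and 1.24. Slc3a2, the heavy chain shared by several of these carriers, stood at 1.72 and 0.84 and its partner Slc7a5 at 0.72 and 1.15. Slc7a7 was lower, at -0.73 and -0.30. None of the 15 passed the test.

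Cytosolic aminoacyl-tRNA synthetases, which charge tRNA with amino acids, had a median of 0.89 over 20 genes (0.93 and 0.69), and 18 of the 20 were higher in both lines. Tars1, Aars1 and Nars1, for threonine, alanine and asparagine, were the 3 at least 2-fold higher in both. Tars1 was at 194 and 390.0 TPM in 6694c2 and at 103 and 220.4 TPM in 6419c5, differences of 1.22 and 1.25. Nars1 was the most abundant of the 3, at 688 and 1335 TPM and at 298 and 577 TPM. None of the 20 genes passed, and the smallest limma adjusted p was 0.108, for Tars1.

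ER chaperones and other unfolded protein response genes were higher in 28 of 32 cases in both lines, but by less in 6419c5. The list's median was 0.80 in 6694c2 and 0.27 in 6419c5, with 0 genes called and 0 at least 2-fold higher in both. The median over both lines was 0.51, or 0.32 without the shift. The ER stress element through which ATF6 acts was searched as CCAAT and CCACG with 9 bases between them, on both strands. It was found in 10 of the 27 members with a window, against 0.137% of all genes with one. Among the genes at least 2-fold higher in both lines 0 of 57 held it, too few genes to read at so low a share. Hspa5 and Creld2 are shown for the element.

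Hspa5: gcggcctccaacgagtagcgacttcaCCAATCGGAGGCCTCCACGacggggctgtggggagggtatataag

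Creld2: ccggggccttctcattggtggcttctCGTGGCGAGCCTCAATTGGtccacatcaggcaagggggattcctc

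In GRCm38.p6 the Hspa5 stretch lies at chr2:34771999-34772069 and that of Creld2 at chr15:88819494-88819564, both on the plus strand. Hspa5, the chaperone BiP, was at 745 and 2436 TPM in 6694c2 (1.93) and at 396 and 712 TPM in 6419c5 (1.00). Creld2, an ER-resident protein, stood at 1.30 and 0.49. Hyou1, an ER chaperone of the HSP110 family, was at 87.9 and 267 TPM in 6694c2 (1.81) and at 54.8 and 71.1 TPM in 6419c5 (0.52). Manf, a secreted ER protein, stood at 1.48 and 0.78 and Herpud1, part of ER-associated degradation, at 1.39 and 0.67. Among sensors and factors, Xbp1 stood at 0.62 and 0.30, Atf6 at 1.09 and 0.06 and Ern1 at 0.54 and 0.15. The limma adjusted p of Hspa5 was 0.206.

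Genes of COPII, COPI and Golgi trafficking, the route out of the ER, had a median of 0.64 in 6694c2 and 0.21 in 6419c5, with 22 of 30 higher and 1 lower in both lines. The median over both lines was 0.41, or 0.23 without the shift. Bet1, a SNARE of ER-to-Golgi vesicles, stood at 0.80 and 0.89, and the retrieval receptor Kdelr3 at 0.74 and 1.18. Kdelr3 was higher in 2838c3 and 6499c4 too, at 1.38 and 1.49. The lower gene was Creb3l2, a membrane-bound transcription factor, at -0.55 and -0.51. None of the 30 passed the test.

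**Figure D4:**
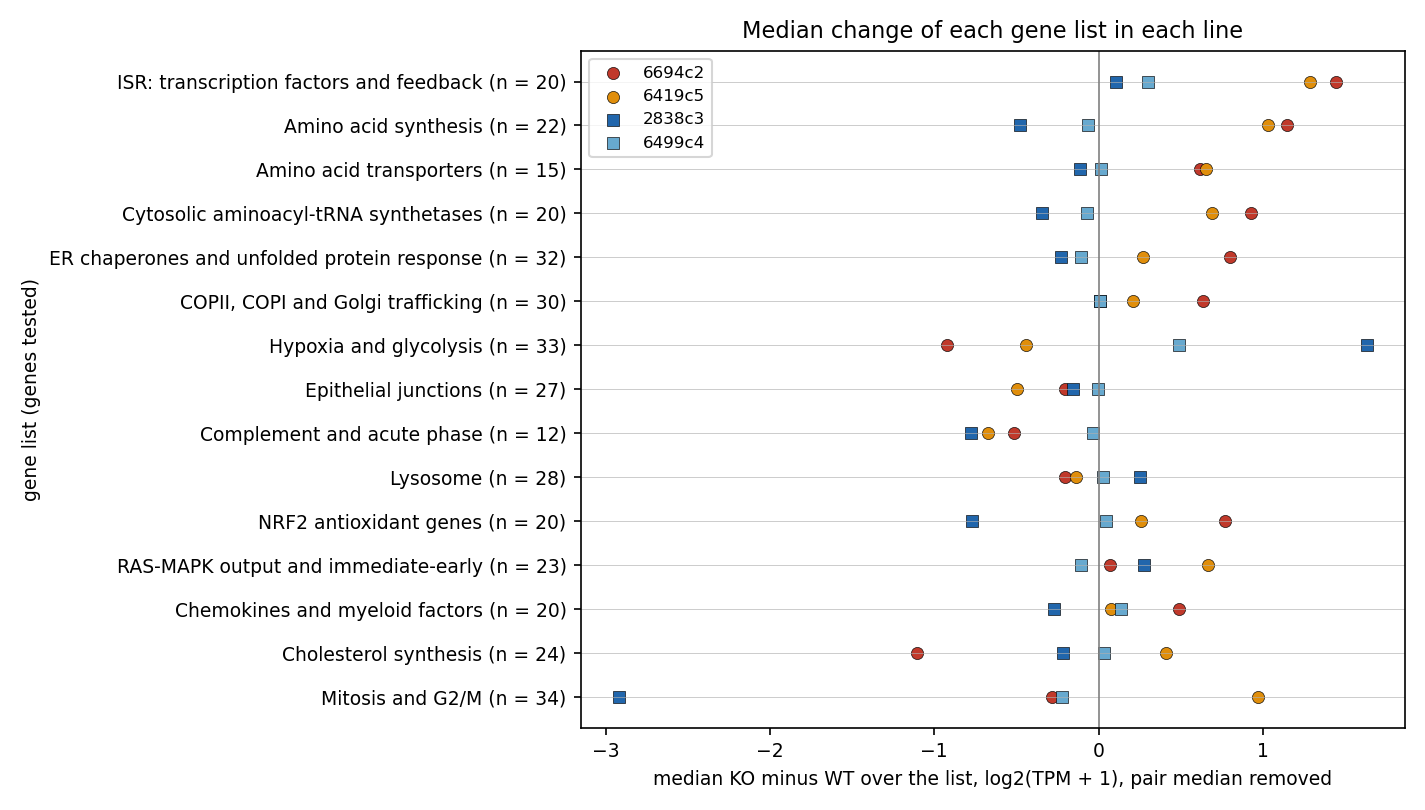
Median relative KO minus WT difference of 15 gene lists (rows, with the number of genes tested) in each line, on the log2(TPM + 1) scale. Circles mark 6694c2 and 6419c5 and squares 2838c3 and 6499c4. The stress factor medians are 1.45 and 1.29 in the first 2 lines and 0.11 and 0.30 in the others, and the hypoxia list has opposite signs in the 2 pairs of lines.

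Antioxidant genes driven by NRF2 overlapped with this response through Slc7a11. The list had a median of 0.77 in 6694c2 and 0.26 in 6419c5, with 13 of 20 higher and 1 lower in both lines. The median over both lines was 0.35, or 0.16 without the shift. Nqo1, a quinone reductase, was at 120.0 and 282 TPM in 6694c2 and at 7.10 and 18.9 TPM in 6419c5, with nearly equal differences of 1.44 and 1.45 (limma adjusted p = 0.0811). Hmox1, the haem oxygenase, was at 71.2 and 347 TPM in 6694c2 (2.49) but at 65.3 and 84.8 TPM in 6419c5 (0.53). Nfe2l2, which encodes NRF2, stood at -0.33 and -0.09.

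Hypoxia and glycolysis genes had the lowest median of the 29 lists. Their median was -0.73 over 33 genes (-0.92 in 6694c2 and -0.44 in 6419c5), with 27 lower and 1 higher in both lines, against 30.1% of all named genes lower in both. Slc16a3, the lactate exporter MCT4, was at 59.1 and 14.8 TPM in 6694c2 and at 41.1 and 10.3 TPM in 6419c5. The KO libraries of both lines lay under both WT libraries, and the difference was -1.73 (SE 0.17, limma adjusted p = 0.0511). Bsg, basigin, is not in the list but carries such lactate transporters to the membrane. It was at 3136 and 756 TPM and at 4486 and 1569.9 TPM, differences of -1.83 and -1.36. Its limma adjusted p was 0.125.

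Car9, the tumour carbonic anhydrase, was at 42.5 and 6.80 TPM in 6694c2 (-2.26) and at 14.3 and 4.82 TPM in 6419c5 (-1.24). Ankrd37, a target of hypoxia-inducible factor, was at 35.5 and 8.74 TPM (-1.69) and at 37.1 and 15.9 TPM (-1.02). Bnip3, a mitophagy receptor, went further in 6694c2, from 238 to 39.9 TPM (-2.33), than in 6419c5, from 155 to 71.2 TPM (-0.95). Pfkl, a phosphofructokinase, stood at -0.92 and -0.98 and Pdk1, which inhibits pyruvate dehydrogenase, at -1.96 and -0.84. Hk2, a hexokinase, was the 1 gene higher in both, at 0.18 and 0.16. Hif1a mRNA was not lower, at 0.73 and 0.56. No gene of the list passed the test (0 of 33).

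The core of the hypoxia response element, TACGTG, was searched after the values were seen. It was held by 8 of 31 list members with a window, and by 3.67% of all genes with one. Slc16a3, Bnip3, Pfkl and Pdk1, which were lower in both lines, were not among the 8. Car9 and Ankrd37 are shown, the first at chr4:43506982-43507025 on the plus strand and the second at chr8:46000061-46000100 on the minus strand of GRCm38.p6.

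Car9: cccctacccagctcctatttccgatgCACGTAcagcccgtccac

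Ankrd37: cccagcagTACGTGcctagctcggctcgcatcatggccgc

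In the other lines the hypoxia and glycolysis list stood on the opposite side, with medians of 1.64 in 2838c3 and 0.49 in 6499c4. Bnip3 was at 3.09 and 0.47 there, and Bsg, outside the list, at 2.80 and 0.24. Car9 was the exception among the named ones in 6499c4, at -0.91. For Slc16a3, at 0.52 and 0.56 in those lines, the limma adjusted p of the difference between the 2 pairs of lines was 0.0848. The difference of the list medians itself was not tested.

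**Figure D5:**
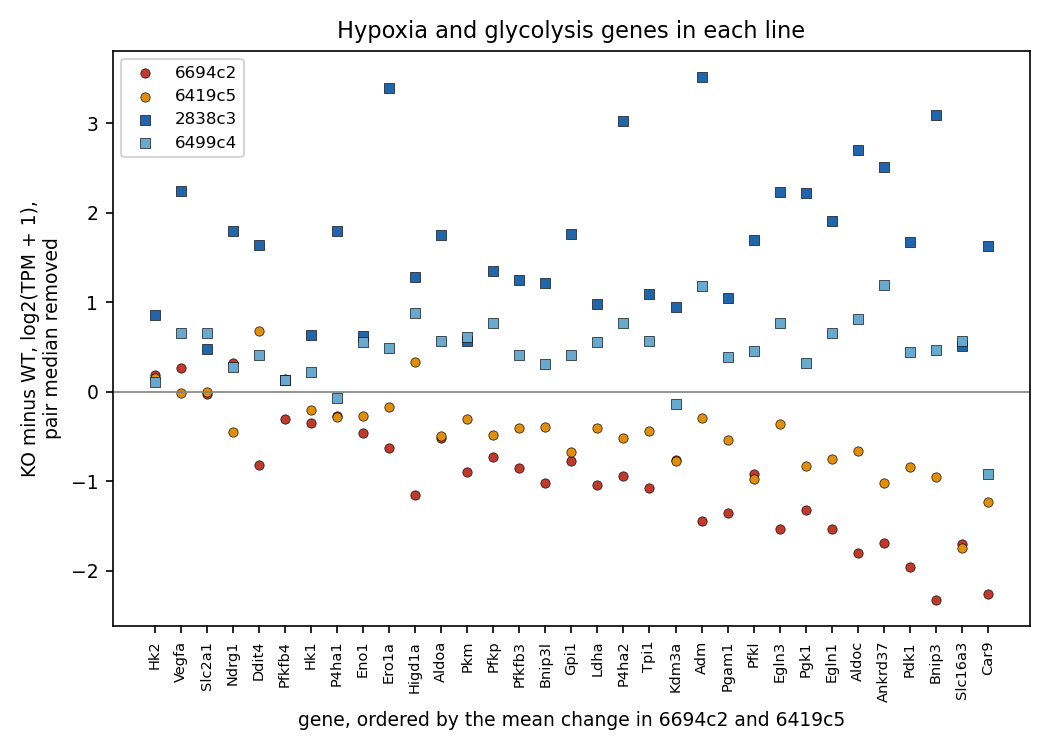
Relative KO minus WT difference (y axis, log2(TPM + 1)) of each of the 33 hypoxia and glycolysis genes (x axis) in the 4 lines. Circles, for 6694c2 and 6419c5, lie mostly under 0, down to -2.33 for Bnip3 in 6694c2, and squares, for 2838c3 and 6499c4, mostly above it.

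The genes with the smallest p in the lower direction included some outside the lists above. Apoa1, an apolipoprotein, was at 53.7 and 14.4 TPM in 6694c2 and at 47.1 and 9.84 TPM in 6419c5, a difference of -1.80 (SE 0.19, limma adjusted p = 0.0702). Hpse, the heparanase, was at 23.2 and 7.15 TPM and at 40.0 and 12.7 TPM, a difference of -1.39. Tfrc, the transferrin receptor, was at 155 and 57.0 TPM and at 168 and 70.3 TPM, differences of -1.21 and -1.09, and was lower in 2838c3 and 6499c4 as well, at -1.28 and -0.66. Atp1b1, a sodium pump subunit, was at 157 and 62.4 TPM and at 692 and 310.3 TPM, and the copper pump Atp7b stood at -0.99 and -1.36. Hhex, a transcription factor of the foregut, was at 61.6 and 23.2 TPM and at 33.6 and 12.8 TPM, and Scara3, a scavenger receptor, stood at -1.22 and -1.18. Hpse and Atp1b1 were lower in 2838c3 and 6499c4 too, at -0.49 and -0.56, and at -0.61 and -0.93. Atp7b and Hhex were above 0 in both of those lines, and Apoa1 and Scara3 had opposite signs there. None of the genes named here passed the test in 6694c2 and 6419c5.

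Complement and acute phase genes had a median of -0.51 over 12 genes, 8 lower and 1 higher in both lines. Cfi, complement factor I, was at 18.5 and 6.26 TPM and at 6.17 and 2.20 TPM. Ambp, which encodes a plasma microglobulin and an inhibitor chain, was at 115 and 42.1 TPM and at 34.7 and 17.3 TPM. In 2838c3 and 6499c4 Ambp was lower too, at -1.68 and -1.45, while Cfi stood at 0.23 and -1.84. Clu, clusterin, was among the most abundant transcripts, at 7989.7 and 2111 TPM in 6694c2 (-1.70) and 5012 and 2713 TPM in 6419c5 (-0.73). Epithelial junction genes were lower in both lines in 19 of 27 cases and higher in 2, with a median of -0.33, or -0.52 without the shift. Jup, plakoglobin, stood at -0.78 and -0.58 and Tjp1, the tight junction scaffold, at -0.33 and -0.64. Lysosome genes were lower in 16 of 28 cases, with a median of -0.21, or -0.39 without the shift. Sqstm1, an autophagy receptor, stood apart from them at 2.35 in 6694c2 and 0.51 in 6419c5. No gene of these 3 lists passed.

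Among O-glycan enzymes the list's median was -0.29 over 21 genes, or -0.48 without the shift, 10 lower and 5 higher in both lines, and C1galt1c1 was the 1 gene at least 2-fold lower in both. B3gnt3, which extends O-glycans, was at 371 and 219.7 TPM and at 448 and 273 TPM (-0.53 and -0.56), and Galnt3, which adds the first sugar, stood at 0.48 and 0.94. Among mucins and other carriers, Muc1 was at 145 and 96.1 TPM in 6694c2 (-0.37) and at 673 and 324 TPM in 6419c5 (-0.90).

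RAS-MAPK and immediate-early genes had a median of 0.35 over 23 genes (0.07 in 6694c2 and 0.67 in 6419c5), or 0.16 without the shift, with 14 higher and 1 lower in both lines. Fosl1, an AP-1 subunit, was at 76.1 and 165 TPM and at 13.3 and 43.2 TPM, a difference of 1.55 (SE 0.19, limma adjusted p = 0.0961). Of 9 genes of the EGF receptor family 2 were higher and 4 lower in both lines, against 29.9% and 30.1% of all named genes. The higher ones were the ligands Areg, at 1.30 and 2.49, and Ereg, at 1.03 and 1.47. In 2838c3 and 6499c4 Areg stood at 1.10 and 0.71 and Ereg at -0.17 and -0.11. Ptgs2, cyclooxygenase-2, was at 20.2 and 72.7 TPM and at 20.6 and 56.1 TPM, a difference of 1.79 (SE 0.19, limma adjusted p = 0.0738), and was higher in 2838c3 and 6499c4 too, at 1.54 and 0.78. Among chemokines, Ccl20 was at 21.5 and 118 TPM and at 25.2 and 50.2 TPM. Cxcl10 was low, at 2.39 and 6.05 TPM and at 1.33 and 3.27 TPM. Over the whole list of 20 chemokines and myeloid factors 8 were higher, 3 lower and 9 opposite in the 2 lines. Of all 13104 named genes 29.9% were higher in both, 30.1% lower, and 5232 were opposite. Snai2, a transcription factor of mesenchymal cells, stood at 2.53 and 1.34, while Fn1 and Thbs1 of the same list were lower, at -2.05 and -0.63, and at -2.24 and -0.65.

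The lines parted in sterol and cell cycle genes. For comparison, 5232 of all 13104 named genes moved in opposite directions in the 2 lines. Of 24 cholesterol synthesis genes 20 moved in opposite directions, with medians of -1.10 in 6694c2 and 0.41 in 6419c5. Stard4, a sterol carrier, was the lowest in 6694c2 of the 4 lower in both, at -1.60 and -0.20. Of 34 genes of mitosis and G2/M 28 were opposite, with medians of -0.28 and 0.97. Among the other 6, all higher in both lines, the mitotic kinases Aurka and Plk1 stood at 0.08 and 0.02 in 6694c2, and at 1.11 and 1.08 in 6419c5. DNA replication and G1/S genes were opposite in 22 of 32 cases, with medians of -0.55 and 0.21. Cytosolic ribosomal protein genes were higher in 49 of 67 cases in both lines by a small amount, with a median of 0.15 that became -0.04 where the median shift was not taken off.

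Histone and structural RNA formed the remaining group. Replication-dependent histone genes, most of whose mRNA carries no poly(A) tail, had a median of 0.42 over 22 genes, with 5 at least 2-fold higher in both lines. The median was 0.24 without the shift, and its sign turned with a TPM minimum of 5, at -0.29. H4c4 was at 1.35 and 9.23 TPM in 6694c2 and at 0.786 and 8.81 TPM in 6419c5, and rose by 2.48 (SE 0.22, limma adjusted p = 0.0441). This call was lost in most other settings. Its limma adjusted p was 0.0688 with a pseudocount of 0.1, 0.0532 with quantile normalization, 0.0534 with robust variance and 0.0895 without structural RNA. H4c4 lies on chromosome 13 from 23765581 to 23766718. H1f1 was listed at 0 in both WT libraries and at 1.79 and 2.07 TPM in the KO libraries. H3c7 was also under 1 TPM in both WT libraries. Both genes passed the filter only through the KO libraries, where they are high, so they could count only as higher. H1f2, the abundant linker histone, stood at -0.26 and -0.16. Histone genes are near-identical copies that can share reads, so the values of single genes are uncertain.

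Rmrp, the RNA of RNase MRP, was at 5.04 and 238 TPM in 6694c2 and at 1.90 and 365 TPM in 6419c5, ratios of 47.2 and 192. Rpph1, the RNA of RNase P, was at 11.2 and 283 TPM and at 1.61 and 124 TPM. The Y RNA Rny3 was at 0 and 85.9 TPM and at 1.01 and 55.7 TPM. Snord104 did not follow, with KO to WT ratios of 0.652 and 0.912. The largest single entry, the unnamed ENSMUSG00000076258, was at 7944 and 88339 TPM and at 6256 and 64965 TPM, ratios of 11.1 and 10.4. Lars2, which encodes the mitochondrial leucyl-tRNA synthetase, was at 47.0 and 473.9 TPM and at 39.4 and 426 TPM, ratios of 10.1 and 10.8. It rose by 3.54 (SE 0.16, limma adjusted p = 0.0104) and lies on chromosome 9 from 123195952 to 123291731, on the plus strand. Gm15564, on chromosome 16, had ratios of 11.2 and 13.9, and Mir6236, on chromosome 9, of 12.7 and 10.4. Lars2, Gm15564 and Mir6236 thus moved by nearly the same ratio as ENSMUSG00000076258, and whether reads were shared between them was not tested. The cytosolic enzyme Lars1 stood at 1.07 and 0.80.

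The differences of 6694c2 and 6419c5 were set against those of 2838c3 and 6499c4 in 1 fit over all 8 libraries, which called 0 named genes. It called 1 of 13447 identifiers (0.00744%), the unnamed ENSMUSG00000094377, and 1519 had an unadjusted p under 0.05. Its limma adjusted p was 0.0596 for Lars2, 0.0947 for Asns, 0.134 for Trib3, 0.145 for Bcat1, and 0.193 for both Psph and H4c4. Trib3 was at 62.9 and 69.9 TPM in 2838c3 and at 16.6 and 22.7 TPM in 6499c4. Asns was at 287 and 191 TPM and at 88.9 and 71.6 TPM, so its KO libraries lay under their WT libraries there. Ddit3 was higher in 2838c3, at 1.57, and stood at 0.34 in 6499c4, with a limma adjusted p of the difference of 0.397.

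Of the 77 genes in the 4 stress and amino acid lists, 39 were at least 2-fold higher in 6694c2, 32 in 6419c5, 5 in 2838c3 and 0 in 6499c4. The medians of these 77 genes were 1.04, 0.81, -0.21 and 0.02. Of the 73 named genes at least 2-fold higher in both 6694c2 and 6419c5, 45 were below 0 in 2838c3 and 24 in 6499c4. In both of those lines 20 were below 0 and 24 above it. The median over all named genes was -0.004 in 2838c3 and -0.001 in 6499c4, so about as many genes lay below 0 as above it. The share of all named genes on the same side in both was not counted. Of the 27 genes at least 2-fold lower, 10 were above 0 in both other lines and 7 below 0 in both. Each of these values rests on 1 library per genotype.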

How the data were processed

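Of 8 RNA-seq libraries, WT and C1galt1c1 KO of 6694c2 and 6419c5 entered the main comparison. Per the labels' protocols poly(A) RNA was selected, with a spike-in that was not used here. The authors deposited TPM. The submitters' processing notes list STAR 2.7.11b, cutadapt 5.1, DESeq2 2.11.40.8, featureCounts 2.1.1 and mm39. Which gene lengths entered the TPM, and from which annotation, is not stated in them. TPM keep no depth, so no counting interval is given and the precision of low values is unknown.

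GENCODE vM39 on GRCm39, the assembly of mm39, named 45505 of 49315 identifiers, and the other 3810 are called unnamed. Values were taken as log2(TPM + 1) of the deposited TPM, filtered at 1 TPM in 2 libraries, and shifted by each line's median difference. The model was limma 3.58.1 under R 4.3.3 with a variance trend and an adjusted p threshold of 0.05. A trial on simulated data used independent noise at the fitted spread. That trial does not check the model for correlated genes or for the uneven RNA make-up of these libraries. The difference between pairs of lines used all 8 libraries. WT and KO are derivatives of 1 line, which pairs them, and their deviations from the group means correlated at 0.667 in 6694c2, 0.775 in 6419c5, 0.432 in 2838c3 and 0.782 in 6499c4.

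The members, the 29 gene lists and the tests were chosen with earlier results of these data known, and the hypoxia response element was added after values were seen. The genes named are up to 15 per direction by size among those called, filled by smallest p at a difference of 0.5 or more with predicted genes skipped, then up to 6 members of each list in the direction of its median and 2 in the other, a set of regulators, 5 structural RNA, and up to 8 genes of the difference. Promoters were RefSeq windows of GRCm38.p6. Settings varied were the pseudocount (0.1), the filter (5 TPM, or none), the shift (none, or quantile normalization), structural RNA (removed), the variance model, the line block, the libraries fitted, and each line left out. Figures came from matplotlib 3.10.9, and tables from numpy 2.4.6 and pandas 2.3.3 under Python 3.11.15.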

Additional observations from a re-analysis of the deposited data

Results flagged for a closer look

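One identifier differed between the pairs of lines by the test of the difference itself. The unnamed ENSMUSG00000094377 had a KO minus WT difference 6.64 higher on the log2 scale in 6694c2 and 6419c5 than in 2838c3 and 6499c4. Its RNA class is not known here.

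The medians of 7 gene lists had one sign in both 6694c2 and 6419c5 and the other in both 2838c3 and 6499c4. The mean of the first 2 medians minus that of the others was 1.36 for amino acid synthesis, 1.02 for cytosolic aminoacyl-tRNA synthetases and 0.7 for ER chaperones and the unfolded protein response. It was -1.74 for hypoxia and glycolysis, -0.48 for the interferon response, -0.31 for lysosome genes and -0.18 for matrix proteases and inhibitors. None of these differences was tested. The interferon list held medians of -0.05 and -0.45 in 6694c2 and 6419c5, with 9 of its 25 genes lower in both lines, 4 higher and 12 opposite. Of all named genes 30.1% were lower in both and 29.9% higher, and 5232 of 13104 were opposite. In the matrix protease list Tmprss2 was lower in all 4 lines, at -0.75 in 6694c2, -0.96 in 6419c5, -1.29 in 2838c3 and -0.61 in 6499c4.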

How the results depend on the processing

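The number of calls depended on the settings, with 25 identifiers higher and 1 lower as reported. It was 48 higher and 7 lower with a TPM minimum of 5, 19 and 0 with a pseudocount of 0.1 or quantile normalization, 12 and 0 without the shift, 15 and 0 without a variance trend, 22 and 0 with robust variance, 2 and 0 without structural RNA, and 0 and 0 without a filter (2159 at an unadjusted p under 0.05). Without the replicate block, which pairs WT and KO of a line, limma called 0 and 0, with 205 at an unadjusted p under 0.05. A fit on all 8 libraries called 21 and 1, or 4 and 0 without 6694c2 and 0 and 0 without 6419c5 (782 unadjusted), where the line left is assumed to vary like the others. The 73 named genes 2-fold higher became 45 without the shift. The 27 lower became 108 with the smaller pseudocount, 53 without a filter and 79 without the shift. A single line gave 237 to 313 higher and 149 to 391 lower. The difference between pairs of lines, 1 call as reported, gave 9 with a TPM minimum of 5, 0 with the smaller pseudocount, without a filter, without structural RNA or without the replicate block, and 0 to 2 with a line left out. Small RNA classes alone held 0.162% and 1.10% of the 6694c2 libraries and 0.204% and 0.879% of the 6419c5 libraries.

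Without the shift, list medians were 1.22 for stress factors, 0.87 for amino acid synthesis, 0.34 for transporters, 0.70 for tRNA synthetases, 0.018 for p53 targets, 0.24 for histones, -0.039 for ribosomal proteins, -0.19 for respiratory chain genes, -0.35 for matrix proteases, -0.48 for O-glycan enzymes, -0.11 for iron handling, -0.39 for lysosome genes and -0.70 for complement. Without a filter they were 0.96 for amino acid synthesis, 0.37 for transporters, 0.33 for histones, -0.10 for the respiratory chain, -0.014 for iron handling, -0.30 for lysosome genes and -0.38 for complement. With a TPM minimum of 5 they were 0.46 for transporters, -0.29 for histones and -0.086 for iron handling, with the smaller pseudocount 0.56 for transporters and 0.49 for histones, and with quantile normalization 0.50 for transporters, 0.47 for histones and -0.11 for iron handling. In 6419c5 or 6694c2 alone they ranged from 0.66 to 0.62 for transporters, 1.29 to 1.45 for stress factors, 1.04 to 1.15 for amino acid synthesis, 0.69 to 0.93 for tRNA synthetases, 0.26 to 0.77 for NRF2 genes, 0.25 to -0.007 for p53 targets, 0.10 to -0.017 for the respiratory chain, -0.037 to -0.21 for matrix proteases, -0.14 to -0.21 for lysosome genes and -0.67 to -0.51 for complement. C1galt1 was -0.30 in 6694c2 and 0.14 in 6419c5 alone, Trp53 was 0.584 and -0.032, and without the shift Eif2ak3 was -0.028 and Hk2 -0.018. The cause of these changes was not tested, and low TPM could not be weighed by depth.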

Other observations

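For the lists not yet described, the median over all named genes, -0.01, is the comparison. The median was 0.21 over 21 p53 targets, or 0.018 without the shift, with Cdkn1a, a cell cycle inhibitor, at 0.10 in 6694c2 and 1.56 in 6419c5, and Trp53 at 0.58 and -0.03. It was -0.20 over 14 fatty acid synthesis genes, -0.002 over 42 nuclear respiratory chain genes, 0.08 over 13 iron handling genes, -0.08 over 9 genes of the EGF receptor family, -0.03 over 18 EMT and mesenchymal genes, -0.04 over 14 mucins, Tn carriers and galectins and -0.17 over 18 matrix proteases and inhibitors. Mitochondrially encoded genes stood at 0.54 in 6694c2 and -0.16 in 6419c5, with 11 of 13 opposite, against 5232 of 13104 named genes. Of these 8 lists and the mitochondrially encoded genes, 0 genes passed the test. Outside these lists, Fkbp11, an ER peptidyl-prolyl isomerase, was at 54.5 and 133 TPM in 6694c2 and at 72.5 and 184 TPM in 6419c5, with a limma adjusted p of 0.0716.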
